A study of Rattus norvegicus with 9 samples.

Results

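Mitochondria keep a ribosome and a protein import machinery of their own, and almost all proteins of both are encoded in the nucleus. In dorsal root ganglia, which hold the cell bodies of sensory neurons and their glia beside the spinal cord, 91 genes of these machines were measured. They were the identifiers in the deposited count table whose symbol begins with Mrpl or Mrps and a number (mitochondrial ribosomal proteins of the large and small subunit) or with Tomm or Timm and a number (translocases of the outer and inner mitochondrial membrane), and that reached 1 CPM (the gene's count divided by the library's total and multiplied by 1000000) in at least 3 of the 9 libraries. Among the 30446 deposited genes, 99 matched these symbols and 91 met the CPM minimum, for 90 distinct symbols, and all 91 were among the 16627 genes tested.

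The libraries came from ganglia of both sides, from T12 to L6, of male Sprague-Dawley rats, in 3 groups of 3: spinal cord injury (SCI), sham operation and naive. The time after injury is given as 30 days for all 3 groups, naive included, and no age is given. The labels give no level or severity of the injury, name no drug or allele, and do not say whether a library is 1 animal or a pool, although the design text calls the libraries biological replicates. The p-values therefore rest on the spread among these 9 libraries, part of which may be technical. Library totals ran from 16724878 to 32060538 counts. The labelled tissue was checked against markers. Sensory neuron genes such as Prph and Nefl summed to 30086 to 30396 CPM in SCI libraries, 26720.4 to 39819 CPM in sham libraries and 27022 to 28281 CPM in naive libraries. Aqp4 and Mobp, of the glia of the brain and cord, summed to 0.896 to 3.32 CPM in SCI libraries, 1.13 to 1.54 CPM in sham libraries and 2.31 to 2.99 CPM in naive libraries. A chi-square test of the counts of library pairs gave, per degree of freedom, 3.05 to 7.82 within SCI, 12.6 to 40.1 within sham and 3.78 to 5.08 within naive, so that the sham libraries differed most among themselves. The naive libraries stand apart from the 6 others in a large share of all genes. No label gives a batch, and a technical difference of the naive libraries cannot be told apart from operation and injury.

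The mitochondrial ribosome translates the few proteins encoded in mitochondrial DNA, which are core subunits of the respiratory chain. All other mitochondrial proteins arrive from the cytosol: receptors of the TOM complex pick them up, the Tom40 channel passes them through the outer membrane, and the TIM23 complex draws those with a presequence into the matrix. Small TIM chaperones ferry membrane proteins across the space between the membranes to the TIM22 complex, which inserts carriers into the inner membrane. Sensory neurons carry these organelles along axons that far exceed the cell body in volume. The members fell into 43 genes named for the large subunit, 29 named for the small subunit, 8 of the TOM group, 4 of TIM23 and 7 of TIM22 and the small TIM chaperones. Some symbols are older than the structures: the products of Mrps30 and Mrps18a sit in the large subunit, that of Mrps36 belongs to the oxoglutarate dehydrogenase complex, and that of Tomm34 is a cytosolic co-chaperone.

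Promoters of the members were read from RefSeq, from 250 bases before to 50 bases after the annotated start, in build GRCr8. They are shown because many of these genes share short sequences that are known binding letters of factors of mitochondrial biogenesis, GABPA and other ETS factors (CCGGAAG), NRF1 (TGCGCA, the core of its longer site) and YY1 (AAGATGG). Exactly 1 promoter was found for 72 of the 90 symbols. On either strand, CCGGAAG stood in 23 of them (31.9%), against 14.2% of the 12967 promoters of genes tested and 8.75% of all 33469 promoters. TGCGCA stood in 17 (23.6%), against 11.6% and 7.24%. AAGATGG stood in 19 (26.4%), against 7.60% and 7.01%. At least 1 of the motifs was present in 46 of the 72 (63.9%), against 29.03% of promoters of genes tested. Matches of different motifs shared bases in 0 of the 72 promoters. AAGATGG contains ATG, and the window reaches past the start of transcription, so that it can also stand at a start of translation. The motifs were taken from general knowledge, and a match describes the letters only.

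The promoters of 5 members follow, with these motifs in capitals and each strand written in the direction of its gene. They were picked by no stated rule, and all 5 hold a motif. Mrpl49 (chr1:212779278-212779577, minus strand) had the largest fitted rise of all members for SCI against naive and holds AAGATGG at 2 places. Mrps30 (chr2:52195855-52196154, minus strand), the member that fell, holds AAGATGG just after the start of transcription. Tomm7 (chr4:12197253-12197552, plus strand), a small TOM subunit that rose, holds TGCGCA. Timm10 (chr3:90314889-90315188, plus strand), a small TIM chaperone that rose, holds CCGGAAG or its complement at 3 places, 2 of which overlap. Tomm70a (chr11:56886227-56886526, minus strand, Tomm70 in RefSeq), an import receptor that did not rise, holds it at 2 places.
Mrpl49: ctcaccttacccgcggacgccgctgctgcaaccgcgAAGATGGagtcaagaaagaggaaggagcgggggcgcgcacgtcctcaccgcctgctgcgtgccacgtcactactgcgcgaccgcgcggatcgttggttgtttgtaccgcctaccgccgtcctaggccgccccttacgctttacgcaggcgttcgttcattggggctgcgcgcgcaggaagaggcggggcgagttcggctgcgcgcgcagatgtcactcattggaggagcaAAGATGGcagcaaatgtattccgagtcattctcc
Mrps30: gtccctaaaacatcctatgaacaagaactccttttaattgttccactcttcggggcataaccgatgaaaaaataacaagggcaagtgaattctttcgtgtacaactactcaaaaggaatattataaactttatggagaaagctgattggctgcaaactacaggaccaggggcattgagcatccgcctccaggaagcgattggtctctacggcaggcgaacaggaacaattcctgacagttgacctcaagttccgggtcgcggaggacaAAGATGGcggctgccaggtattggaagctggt
Tomm7: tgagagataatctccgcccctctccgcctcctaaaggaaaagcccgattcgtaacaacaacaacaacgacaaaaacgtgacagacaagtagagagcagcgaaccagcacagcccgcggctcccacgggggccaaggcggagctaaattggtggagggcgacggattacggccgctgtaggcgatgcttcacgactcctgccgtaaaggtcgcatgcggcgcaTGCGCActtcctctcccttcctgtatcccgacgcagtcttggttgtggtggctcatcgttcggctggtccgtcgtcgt
Timm10: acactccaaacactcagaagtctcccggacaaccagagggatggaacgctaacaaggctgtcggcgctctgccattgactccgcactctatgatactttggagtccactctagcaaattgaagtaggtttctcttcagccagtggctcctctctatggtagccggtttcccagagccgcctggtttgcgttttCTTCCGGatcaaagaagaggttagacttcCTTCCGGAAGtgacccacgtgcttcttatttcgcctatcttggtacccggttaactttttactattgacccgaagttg
Tomm70a: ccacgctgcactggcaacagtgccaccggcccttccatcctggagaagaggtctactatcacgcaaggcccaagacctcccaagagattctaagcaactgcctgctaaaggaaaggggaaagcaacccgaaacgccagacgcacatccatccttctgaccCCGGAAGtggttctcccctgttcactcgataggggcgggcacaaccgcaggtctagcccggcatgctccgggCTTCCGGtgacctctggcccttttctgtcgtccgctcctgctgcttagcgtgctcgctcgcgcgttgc

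SCI libraries were first set against naive ones, a contrast that takes cord injury and operation together. Genes of every part of the ribosome and import machinery were higher in SCI. Of the 91 members 73 rose, 1 fell (Mrps30) and 17 did not pass, at an edgeR adjusted p under 0.05. Over all genes tested 23.9% were called higher, 24.6% lower and 48.5% in either direction. The median log2 change was 0.37 over the members and 0.011 over all genes tested, and 86 of the members lay above 0 where 51% of all genes did. In 77 members every SCI library lay above every naive library, as it did in 32.2% of all genes, and in 2 members (Mrps30 and Tomm70a) every SCI library lay below, as in 31.9% of all genes. In whole ganglia, a shift in the share of a cell type and a shift in RNA per cell cannot be told apart. Summed over the members, CPM were 4026, 4189.9 and 4319 in the SCI libraries, 4162, 4342 and 4513 in the sham libraries and 3229, 3272 and 3169 in the naive libraries, so that the lowest SCI or sham library held more than the highest naive library. The rise had a like size in each SCI library, with a median of 0.32, 0.41 and 0.44 on the log2 scale over the naive mean in SCI 1 to 3. Over all genes that median was between 0.0056 and 0.012.

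**Figure D1:**
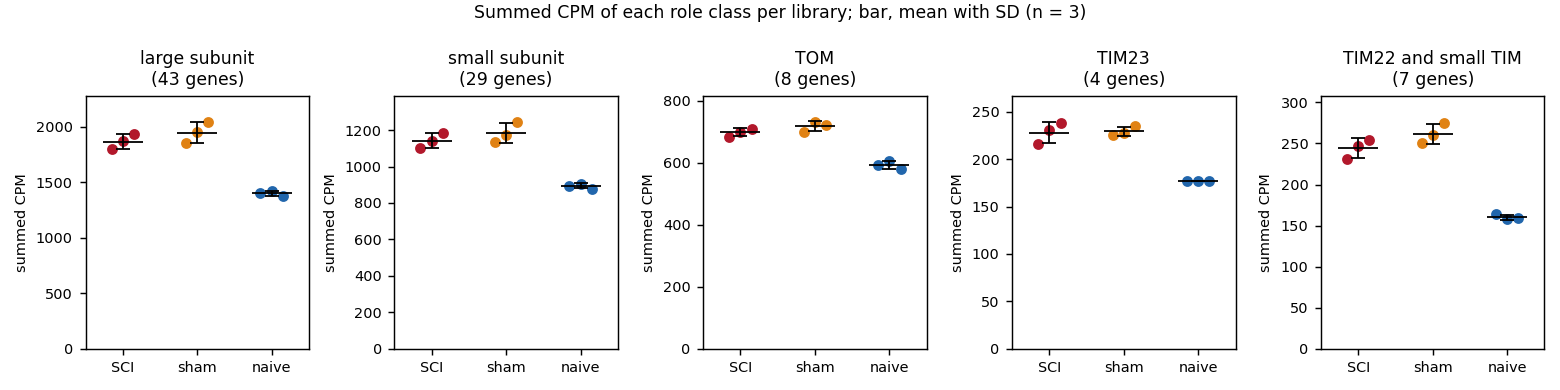
Summed CPM of the members of each role class (y axis, from 0) in each SCI, sham and naive library (points), with the mean and SD of the group as a bar. In each of the 5 classes the SCI and sham libraries lie above the naive libraries, for example at 231 to 255 CPM in SCI against 158 to 164 CPM in naive for TIM22 and the small TIM chaperones.

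In the large subunit 36 of 43 genes rose, none fell and 7 did not pass (median log2 change 0.35). Mrpl43, a protein of the mitochondrial large subunit without a bacterial counterpart (ENSRNOG00000014890), stood at 58.8, 62.4 and 63.7 CPM in SCI, 63.3, 63.4 and 68.7 CPM in sham and 29.1, 33.5 and 31.5 CPM in naive. Its SCI and sham libraries overlap and lie far above all naive libraries. The fitted level was 1.96-fold that of naive in SCI (edgeR adjusted p = 7.75e-07, log2 change 0.97, SE 0.070) and 2.07-fold that of naive in sham. Mrpl49, also without a bacterial counterpart, stood at 14.1, 16.2 and 14.1 CPM in SCI, 14.4, 14.4 and 15.9 CPM in sham and 5.57, 8.31 and 7.90 CPM in naive. It had the largest fitted change of all members (edgeR adjusted p = 4.16e-05, log2 change 1.02, SE 0.13), with naive 1 below the other naive libraries. Mrpl54, a further mitochondria-specific protein of this subunit, lay close to Mrpl43 in size of change. Mrpl54 stood at 60.9, 62.5 and 65.04 CPM in SCI, 58.2, 61.6 and 77.04 CPM in sham and 31.7, 32.3 and 33.8 CPM in naive, with sham 3 the highest of all libraries (edgeR adjusted p = 5.19e-06, log2 change 0.95, SE 0.092). Mrpl34, the counterpart of bacterial L34, averaged 14.7 ± 0.753 CPM in SCI, 14.6 ± 1.89 CPM in sham and 7.55 ± 0.853 CPM in naive (SD, n = 3 each), a log2 change of 0.96 (SE 0.11, edgeR adjusted p = 2.43e-05) for SCI against naive.

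Mrpl12, the stalk protein that contacts translation factors, averaged 70.9 ± 0.872 CPM in SCI, 76.1 ± 3.26 CPM in sham and 44.4 ± 2.63 CPM in naive (edgeR adjusted p = 4.25e-06, log2 change 0.67, SE 0.064 for SCI against naive). Mrpl17, the large subunit gene with the most counts, averaged 188 ± 9.09 CPM in SCI, 201 ± 6.68 CPM in sham and 141 ± 4.13 CPM in naive, a smaller change of 0.42 (SE 0.063) on the log2 scale that also passed (edgeR adjusted p = 1.43e-04). Mrpl30, with the fewest counts, averaged 12.01 ± 0.819 CPM in SCI, 13.01 ± 1.72 CPM in sham and 7.85 ± 1.03 CPM in naive and rose as well (edgeR adjusted p = 0.00121). CPM are not scaled to transcript length, so they rank counts and not molecules between genes. Those that did not pass were Mrpl3, Mrpl16, Mrpl19, Mrpl35, Mrpl39, Mrpl44 and Mrpl53, with log2 changes from -0.12 to 0.19.

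Small subunit genes rose in 22 of 29 cases, 1 fell and 6 did not pass (median 0.40). Mrps33 stood at 46.9, 42.9 and 48.7 CPM in SCI, 44.7, 49.5 and 52.5 CPM in sham and 27.4, 31.7 and 26.4 CPM in naive (edgeR adjusted p = 3.33e-05, log2 change 0.70, SE 0.087). Mrps12, the counterpart of the bacterial S12 protein at the decoding centre, stood at 27.4, 31.1 and 30.8 CPM in SCI, 29.9, 29.5 and 31.5 CPM in sham and 18.7, 18.95 and 19.1 CPM in naive (edgeR adjusted p = 1.32e-05, log2 change 0.65, SE 0.072). For both genes the lowest SCI library lay well above the highest naive library. Mrps26 and Mrps28 rose as well. Mrps26 averaged 39.1 ± 0.733 CPM in SCI, 41.8 ± 4.52 CPM in sham and 24.5 ± 0.696 CPM in naive (edgeR adjusted p = 2.04e-05, log2 change 0.67, SE 0.079), and Mrps28 averaged 26.2 ± 0.877 CPM in SCI, 27.1 ± 2.20 CPM in sham and 16.9 ± 0.824 CPM in naive (edgeR adjusted p = 3.35e-05, log2 change 0.63, SE 0.079). Mrps15, the small subunit gene with the most counts, averaged 73.4 ± 4.77 CPM in SCI, 73.2 ± 1.68 CPM in sham and 58.5 ± 2.08 CPM in naive, a smaller rise (edgeR adjusted p = 0.00105, log2 change 0.33, SE 0.064). Mrps30 stood at 38.6, 39.2 and 41.6 CPM in SCI, 44.8, 43.8 and 41.8 CPM in sham and 49.1, 45.7 and 44.5 CPM in naive. Its SCI libraries lay below all naive libraries, and its sham libraries overlapped them. It was the only member called lower (edgeR adjusted p = 0.0123, log2 change -0.22, SE 0.065), and the call was lost without SCI 2 (edgeR adjusted p = 0.0551) or without naive 1 (edgeR adjusted p = 0.0675). Mrps10, Mrps14, Mrps17, Mrps27, Mrps31 and Mrps35 did not pass, with log2 changes from 0.041 to 0.21.

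Ribosomal proteins with and without a bacterial counterpart were described separately, by the number in the symbol, since the lower numbers follow bacterial ribosomal proteins, with Mrps24 and Mrpl47 counted among those with a counterpart. For SCI against naive 33 of 40 with a counterpart rose (median 0.35), and 21 of 27 without one (median 0.35), where 23.9% of all genes were called higher. For sham against naive 33 of the 40 and 23 of the 27 rose (medians 0.38 and 0.43), where 24.7% of all genes were called higher. The 5 genes whose symbols do not follow this numbering (Mrps18a, Mrps18b, Mrps28, Mrps30 and Mrps36) were set aside. No test of the difference was made.

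**Figure D2:**
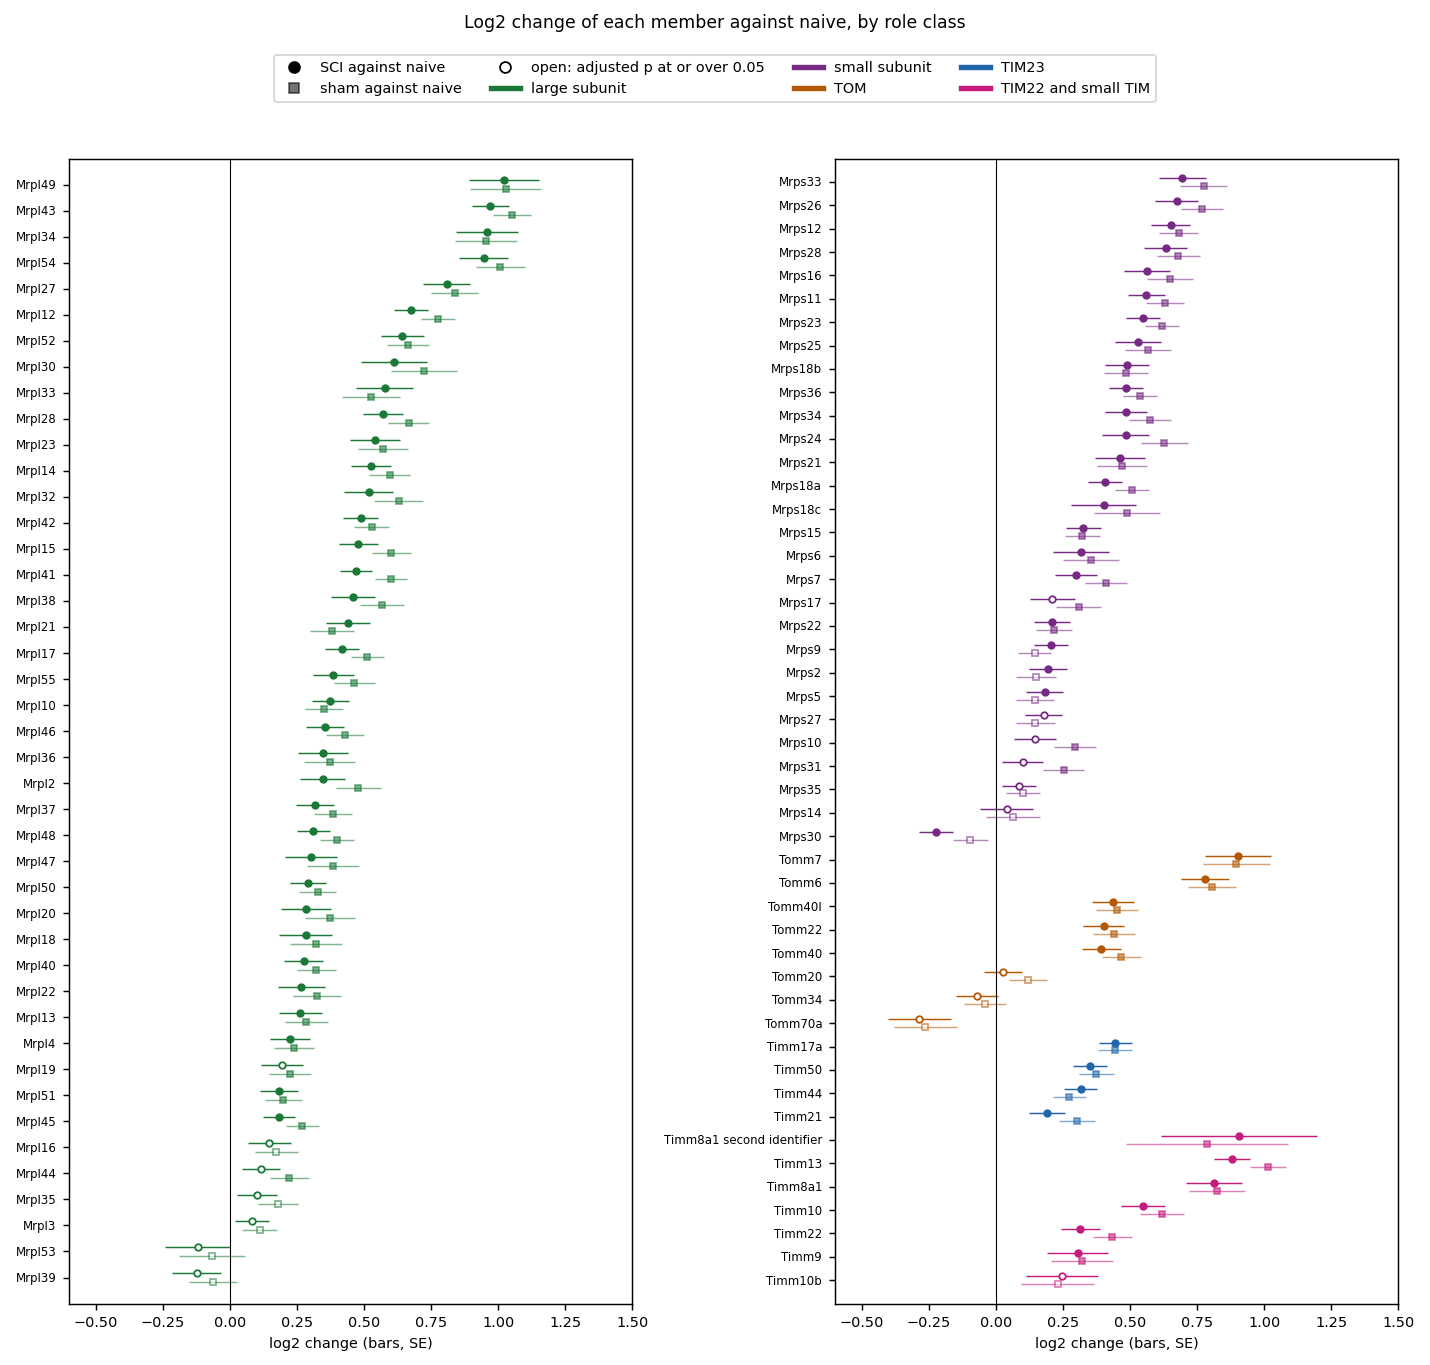
Log2 change of each of the 91 members (x axis, bars are SE) for SCI against naive (circles) and sham against naive (squares), sorted within each role class, with open symbols for an edgeR adjusted p of 0.05 or more. Most symbols lie right of 0, up to 1.02 for Mrpl49 in SCI against naive, and circles and squares of a gene lie near each other.

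Genes of the TOM group did not move together. Of its 8 genes 5 rose and 3 did not pass (median 0.40). Tomm7, a small subunit that tunes the assembly of the complex, stood at 96.3, 98.4 and 106 CPM in SCI, 78.2, 102 and 120.1 CPM in sham and 48.2, 57.9 and 54.6 CPM in naive (edgeR adjusted p = 6.67e-05, log2 change 0.90, SE 0.12). All SCI and sham libraries of Tomm7 lay above the naive ones, and sham 1 and sham 3 marked both ends of their range. Tomm6, another small subunit, stood at 70.8, 71.7 and 74.4 CPM in SCI, 65.2, 70.5 and 85.4 CPM in sham and 44.4, 42.2 and 39.7 CPM in naive (edgeR adjusted p = 1.70e-05, log2 change 0.78, SE 0.089), with every operated library above every naive library. Tomm40, the channel, stood at 70.8, 76.5 and 74.4 CPM in SCI, 86.5, 73.02 and 73.5 CPM in sham and 55.05, 55.7 and 58.02 CPM in naive, a log2 change of 0.39 (SE 0.073, edgeR adjusted p = 6.76e-04). Its relative Tomm40l averaged 39.3 ± 2.71 CPM in SCI, 39.5 ± 3.52 CPM in sham and 28.98 ± 1.08 CPM in naive and rose by 0.44 (SE 0.079) on the log2 scale (edgeR adjusted p = 5.50e-04).

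The import receptors differed from each other. Tomm22, the central receptor that also holds the complex together, stood at 88.6, 96.2 and 98.3 CPM in SCI, 85.3, 104 and 101 CPM in sham and 71.7, 73.4 and 69.1 CPM in naive and rose (edgeR adjusted p = 9.25e-04, log2 change 0.40, SE 0.078). Tomm20, the receptor for presequences, stood at 123, 119.6 and 124 CPM in SCI, 118, 137 and 137 CPM in sham and 127, 121 and 112 CPM in naive. Its SCI libraries lie within the range of the naive ones, and it did not pass (edgeR adjusted p = 0.775, log2 change 0.028, SE 0.072). Tomm70a, the receptor for carrier proteins, stood at 90.5, 80.5 and 81.3 CPM in SCI, 96.7, 94.4 and 64.98 CPM in sham and 103, 105 and 99.2 CPM in naive. All SCI and sham libraries of Tomm70a lay below the lowest naive library, but it did not pass (edgeR adjusted p = 0.0583, log2 change -0.28, SE 0.12), with sham 3 far below the other sham libraries. Since all groups share 1 estimate of the spread, the SCI call turned on the sham libraries. Tomm70a was called lower in SCI without sham 3 (log2 change -0.28, edgeR adjusted p = 7.02e-04), without sham 1 (edgeR adjusted p = 0.0225) and in a fit of SCI and naive alone (edgeR adjusted p = 2.03e-04), and also without a low-count filter (edgeR adjusted p = 0.0233). The cytosolic co-chaperone Tomm34 averaged 113 ± 4.23 CPM in SCI, 115 ± 12.7 CPM in sham and 118 ± 4.88 CPM in naive and did not pass (edgeR adjusted p = 0.474, log2 change -0.071, SE 0.078).

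**Figure D3:**
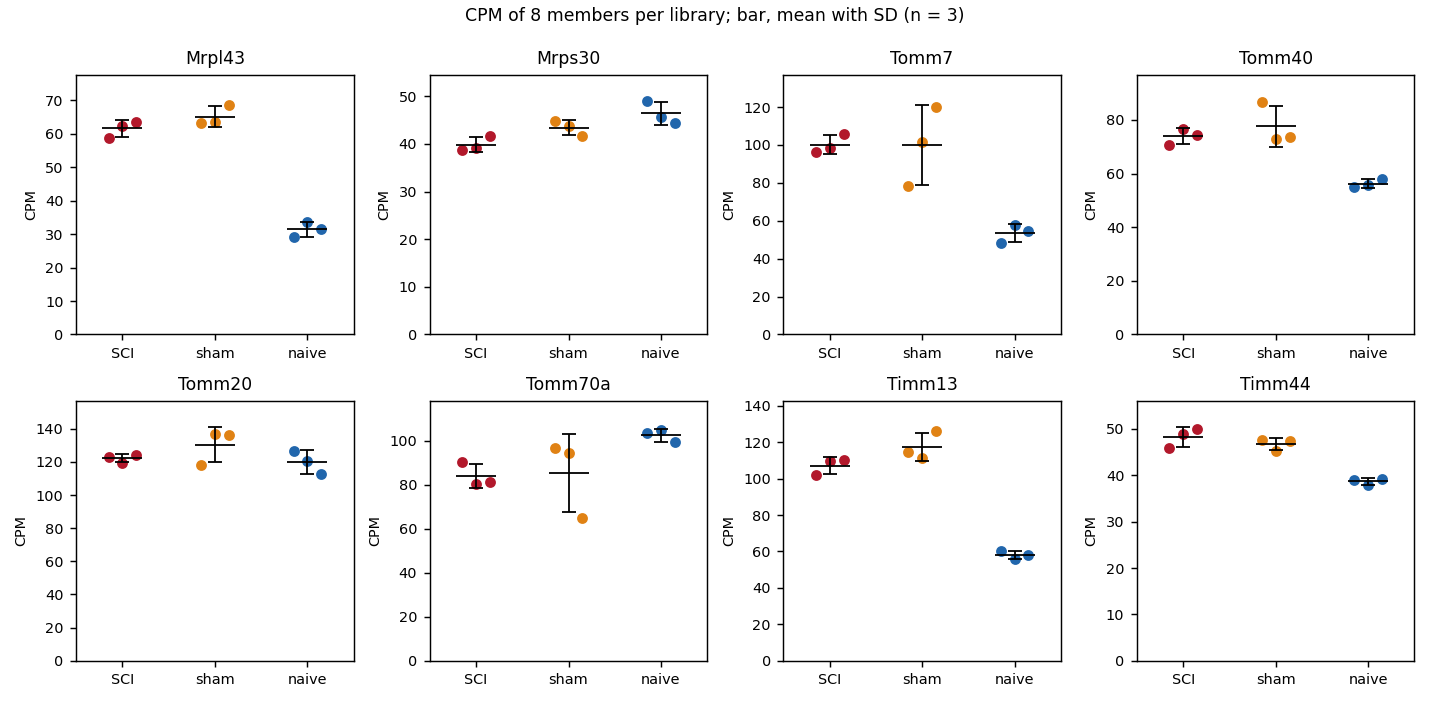
CPM (y axis, from 0) of 8 members in each SCI, sham and naive library (points), with the mean and SD of the group as a bar. Mrpl43, Tomm7, Tomm40, Timm13 and Timm44 lie higher in SCI and sham than in naive, Tomm20 overlaps between groups, and Mrps30 and Tomm70a lie lower in SCI than in naive.

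All 4 measured genes of the TIM23 complex rose (median 0.33). Timm17a, a core subunit of the inner membrane channel, stood at 93.9, 102 and 104 CPM in SCI, 95.6, 101 and 103 CPM in sham and 72.7, 74.3 and 73.3 CPM in naive (edgeR adjusted p = 7.62e-05, log2 change 0.45, SE 0.062). Timm44, which anchors the import motor on the matrix side, stood at 45.9, 48.99 and 49.9 CPM in SCI, 47.6, 45.3 and 47.4 CPM in sham and 39.1, 37.8 and 39.3 CPM in naive (edgeR adjusted p = 8.89e-04, log2 change 0.32, SE 0.061). For both, the naive libraries lay close together and below all 6 others. Timm50, the receptor that faces the TOM complex, averaged 55.4 ± 3.64 CPM in SCI, 56.2 ± 1.02 CPM in sham and 43.4 ± 0.598 CPM in naive (edgeR adjusted p = 5.48e-04, log2 change 0.35, SE 0.064). Timm21, which links the translocase to respiratory chain complexes, changed least (edgeR adjusted p = 0.0309, log2 change 0.19, SE 0.067), and its call was lost in DESeq2 (adjusted p = 0.0503) and without a low-count filter (edgeR adjusted p = 0.0731). Leaving out SCI 1, SCI 3 or any 1 naive library also ended it, with edgeR adjusted p from 0.0563 to 0.122. Timm23, the channel itself, was not analysed here.

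Of the 7 identifiers of TIM22 and the small TIM chaperones 6 rose and 1 did not pass (median 0.55). Timm13 (ENSRNOG00000019682), a small TIM that works in a hexamer with Tim8, stood at 102, 109 and 110.0 CPM in SCI, 115, 111 and 126 CPM in sham and 60.3, 55.9 and 58.2 CPM in naive. Its lowest SCI library lay far above its highest naive library, and the fitted SCI level was 1.84-fold that of naive (edgeR adjusted p = 1.01e-06, log2 change 0.88, SE 0.067). Its partner Timm8a1 stood at 20.4, 19.2 and 18.7 CPM in SCI, 16.4, 22.1 and 20.9 CPM in sham and 10.7, 11.2 and 11.4 CPM in naive under its main identifier (ENSRNOG00000011226; edgeR adjusted p = 4.22e-05, log2 change 0.81, SE 0.10). Timm8a1 is listed under a further identifier (ENSRNOG00000043480), which averaged 1.28 ± 0.232 CPM in SCI, 1.21 ± 0.444 CPM in sham and 0.678 ± 0.150 CPM in naive. Reads of near-identical copies may be split between such identifiers, so both values are uncertain. The further identifier reached 1 CPM in 5 libraries, all of SCI or sham and none of naive. It met the rule only through the groups where it is high, so its rise is no support. Its call (edgeR adjusted p = 0.0196) was lost without SCI 1, SCI 3 or naive 1, with edgeR adjusted p from 0.0562 to 0.0737. Among the 90 members at 1 CPM in all libraries, 72 were called higher for SCI against naive and 74 for sham against naive.

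Timm10, a chaperone that pairs with Tim9 to carry inner membrane proteins, stood at 28.8, 29.2 and 29.4 CPM in SCI, 27.99, 30.8 and 33.1 CPM in sham and 21.8, 19.1 and 18.99 CPM in naive (edgeR adjusted p = 1.25e-04, log2 change 0.55, SE 0.081). The channel of the carrier pathway, Timm22, averaged 59.4 ± 5.80 CPM in SCI, 64.4 ± 1.62 CPM in sham and 47.7 ± 1.46 CPM in naive (edgeR adjusted p = 0.00296, log2 change 0.32, SE 0.073). Timm9, the partner of Timm10, averaged 19.6 ± 2.84 CPM in SCI, 19.8 ± 2.05 CPM in sham and 15.8 ± 1.15 CPM in naive (edgeR adjusted p = 0.0393, log2 change 0.31, SE 0.11). Timm10b averaged 8.15 ± 0.488 CPM in SCI, 8.13 ± 1.52 CPM in sham and 6.86 ± 0.402 CPM in naive and did not pass (edgeR adjusted p = 0.148, log2 change 0.25, SE 0.13).

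Sham libraries were set against naive ones for the operation without cord injury. Most members were higher in sham: 75 of 91 members were called higher, none lower, and 16 did not pass, where 24.7% of all genes were called higher, 25.9% lower and 50.6% in either direction. The median log2 change was 0.43 over the members and 0.00048 over all genes, and 86 members lay above 0 where 50.1% of all genes did. In 80 members every sham library lay above every naive library, against 27.5% of all genes, and in 1 (Tomm70a) every sham library lay below, against 29.2%. By class, 38 of 43 large subunit genes, 22 of 29 small subunit genes, 5 of 8 TOM genes, 4 of 4 TIM23 genes and 6 of 7 genes of TIM22 and the small TIM chaperones rose, with medians of 0.40, 0.47, 0.45, 0.34 and 0.62. The 2 comparisons share the naive libraries, so their likeness is no independent support. Members called in both numbered 70. The share of all genes called in both was not counted. It cannot be read from the 48.5% called for SCI and 50.6% for sham, so the 70 has no background here. Members called only for SCI were Mrps2, Mrps5, Mrps9 and Mrps30, and those called only for sham were Mrpl19, Mrpl44, Mrps10, Mrps17 and Mrps31. None of these 9 genes passed between SCI and sham.

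Timm13 and Mrpl43 had the smallest p among the members for sham against naive, with log2 changes of 1.01 (SE 0.067, edgeR adjusted p = 3.12e-07) and 1.05 (SE 0.071, edgeR adjusted p = 3.42e-07). Mrpl12 and Mrpl41 also had small p, with log2 changes of 0.78 (SE 0.064, edgeR adjusted p = 1.24e-06) and 0.60 (SE 0.060, edgeR adjusted p = 5.04e-06). In the large subunit Mrpl49, Mrpl34 and Mrpl54, named for SCI, rose in sham by 1.03 (SE 0.13), 0.96 (SE 0.12) and 1.01 (SE 0.092) on the log2 scale. In the small subunit Mrps33, Mrps26, Mrps12 and Mrps28 rose by 0.78 (SE 0.087), 0.77 (SE 0.079), 0.68 (SE 0.073) and 0.68 (SE 0.080), while Mrps30 did not pass (edgeR adjusted p = 0.245, log2 change -0.095, SE 0.065). Tomm7, Tomm6 and Tomm40l rose by 0.90 (SE 0.12), 0.81 (SE 0.090) and 0.45 (SE 0.079). These sizes lay near those for SCI.

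Among channel and receptor genes, Tomm40, Tomm22 and Tomm20 had sham changes of 0.47 (SE 0.073), 0.44 (SE 0.078) and 0.12 (SE 0.072) on the log2 scale, of which Tomm20 did not pass (edgeR adjusted p = 0.182). Tomm20 was called higher without sham 1 (edgeR adjusted p = 0.0229) and without sham 1 and sham 3 together (edgeR adjusted p = 0.0365). Tomm70a did not pass either (edgeR adjusted p = 0.0764, log2 change -0.26, SE 0.12), though it was called lower under some alternatives, among them without sham 1 (edgeR adjusted p = 0.0137) and without a low-count filter (edgeR adjusted p = 0.0337). Timm44, Timm17a, Timm50 and Timm21 of TIM23 rose by 0.27 (SE 0.062), 0.44 (SE 0.062), 0.38 (SE 0.064) and 0.30 (SE 0.067). Timm22, Timm8a1 and Timm10 rose by 0.43 (SE 0.073), 0.82 (SE 0.11) and 0.62 (SE 0.082). Tomm7, Tomm6 and Mrpl54 were lowest in sham 1 and highest in sham 3. The median over the members relative to the naive mean was 0.35, 0.42 and 0.51 in sham 1 to 3.

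SCI was then set against sham, for cord injury beyond the operation. In edgeR none of the 91 members passed in either direction, and 0% of all genes did. At an unadjusted p under 0.05 there was 1 member in edgeR (Mrpl41), where 3.16% of all genes reached that level. DESeq2 called 0 members and 0.0541% of all genes, with 2 members and 377 of all 16627 genes tested at an unadjusted p under 0.05. In limma-voom 0 members and 0% of all genes were called, with 1 member and 558 of all genes at that level. The members lay slightly lower in SCI, with 76 of 91 below 0, against 50.3% of all genes, and a median log2 change of -0.048 against -0.00078 over all genes. The size of this shift varied with the library left out, from -0.10 without sham 1 to -0.016 without sham 3. Relative to the sham mean, the median over the members was -0.10, -0.049 and -0.0053 in SCI 1 to 3. It was -0.061, -0.00060 and 0.051 in sham 1 to 3. By class the medians were -0.061 for the large subunit, -0.052 for the small subunit, -0.030 for TOM, -0.011 for TIM23 and -0.016 for TIM22 and the small TIM chaperones, the last of which was 0.054 without sham 2.

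The 5 members with the smallest p were Mrpl41, Timm13, Mrps31, Mrps30 and Mrps10, with an edgeR adjusted p of 1 each. Mrpl41, of the large subunit, stood at 58.5, 62.98 and 61.9 CPM in SCI, 65.7, 65.6 and 69.2 CPM in sham and 43.7, 45.5 and 43.1 CPM in naive (log2 change -0.13, SE 0.060 for SCI against sham). Its SCI libraries lay below its sham libraries and above its naive libraries. The log2 change was -0.13 (SE 0.066) in Timm13 and -0.13 (SE 0.066) in Mrps30, and in both the SCI libraries lay below the sham libraries. Mrps10 stood at 18.1, 18.2 and 18.6 CPM in SCI, 21.01, 20.8 and 19.05 CPM in sham and 15.8, 17.8 and 16.03 CPM in naive, and Mrps31 averaged 22.7 ± 1.94 CPM in SCI, 25.2 ± 0.717 CPM in sham and 21.1 ± 0.378 CPM in naive, with log2 changes of -0.15 (SE 0.079) and -0.15 (SE 0.077). SCI libraries lay below all sham libraries without overlap in 6 members (these but Mrps31, with Mrpl12 and Timm21), as in 3.11% of all genes, and above them in none, against 3.3% of all genes. Cytosolic ribosomal protein genes lay below 0 in 53 of 65 cases and proteasome genes in 34 of 37. Skeletal muscle markers such as Acta1 and Ckm stood lower in SCI than in sham as well: 7 of 8 listed were tested, none at 0 in any library, and they summed to 54.6 to 83.4 CPM in SCI libraries, 113 to 130.2 CPM in sham libraries and 56.03 to 92.4 CPM in naive libraries. In all 7 the SCI libraries lay below the sham libraries, with an unadjusted p under 0.05 in edgeR, DESeq2 and limma-voom. After adjustment 4 of the 7 were called in DESeq2, which called 9 genes in all, and 0 in edgeR and limma-voom. Their part in the shift of the members was not tested.

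Other genes that serve the same machines were taken from lists written from general knowledge. Transcripts of mitochondrial DNA itself were not analysed here. Of 38 listed assembly and translation factors 37 were tested, and for SCI against naive 10 rose, 8 fell and 19 did not pass (median 0.11), so that 27.03% rose where 23.9% of all genes did. Ribosomal proteins that carry other symbols moved apart. Gadd45gip1 of the large subunit averaged 54.8 ± 2.02 CPM in SCI, 60.1 ± 6.54 CPM in sham and 31.4 ± 1.75 CPM in naive (edgeR adjusted p = 6.43e-06, log2 change 0.80, SE 0.081), and Chchd1 of the small subunit rose by 0.79 (SE 0.10), while Dap3 did not pass (edgeR adjusted p = 0.158, log2 change 0.11, SE 0.060) and Ptcd3 fell (edgeR adjusted p = 0.0101, log2 change -0.23, SE 0.066). The insertase Oxa1l, which receives newly made chains at the inner membrane, rose by 0.46 (SE 0.057) on the log2 scale. Lrpprc, a large protein that stabilizes mitochondrial messenger RNA, fell to 118 ± 3.83 CPM in SCI, against 201 ± 11.4 CPM in naive (edgeR adjusted p = 2.10e-05, log2 change -0.77, SE 0.090). Slirp, its small partner, did not pass (edgeR adjusted p = 0.0765, log2 change 0.46, SE 0.20). Translation factors also moved in both directions, Tufm and Tsfm with log2 changes of 0.24 (SE 0.067) and 0.44 (SE 0.094) and Gfm1 and Gfm2 with -0.28 (SE 0.075) and -0.25 (SE 0.081), all of which passed.

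Among other import genes 22 of 24 listed were tested, of which 9 rose, 4 fell and 9 did not pass for SCI against naive (median 0.11), where 23.9% of all genes were called higher and 24.6% lower. Parts of the import motor moved in both directions. Pam16, which regulates the motor at the channel, averaged 47.05 ± 0.816 CPM in SCI, 50.9 ± 5.20 CPM in sham and 26.6 ± 2.13 CPM in naive (edgeR adjusted p = 6.86e-06, log2 change 0.82, SE 0.083), and the J proteins Dnajc15 and Dnajc19 of the same motor rose by 0.73 (SE 0.094) and 0.32 (SE 0.099). Hspa9, the heat shock protein that pulls the chain, averaged 162 ± 2.72 CPM in SCI, 165 ± 21.1 CPM in sham and 191 ± 0.620 CPM in naive and fell (edgeR adjusted p = 0.0247, log2 change -0.24, SE 0.081). Romo1, a small regulator of TIM23, rose by 0.64 (SE 0.098). In the sorting complex of the outer membrane neither Samm50 (edgeR adjusted p = 0.0707, log2 change 0.15, SE 0.065) nor Mtx1 (edgeR adjusted p = 0.62, log2 change 0.051, SE 0.079) passed. Mtx2 did not pass either (edgeR adjusted p = 0.666, log2 change 0.040, SE 0.071), while Mtx3 fell (edgeR adjusted p = 0.0271, log2 change -0.37, SE 0.13). For sham against naive 11 of these 22 rose and 3 fell, and 18 of the 37 assembly and translation factors rose and 5 fell, where 24.7% of all genes were called higher and 25.9% lower. Between SCI and sham none of either list passed.

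**Figure D4:**
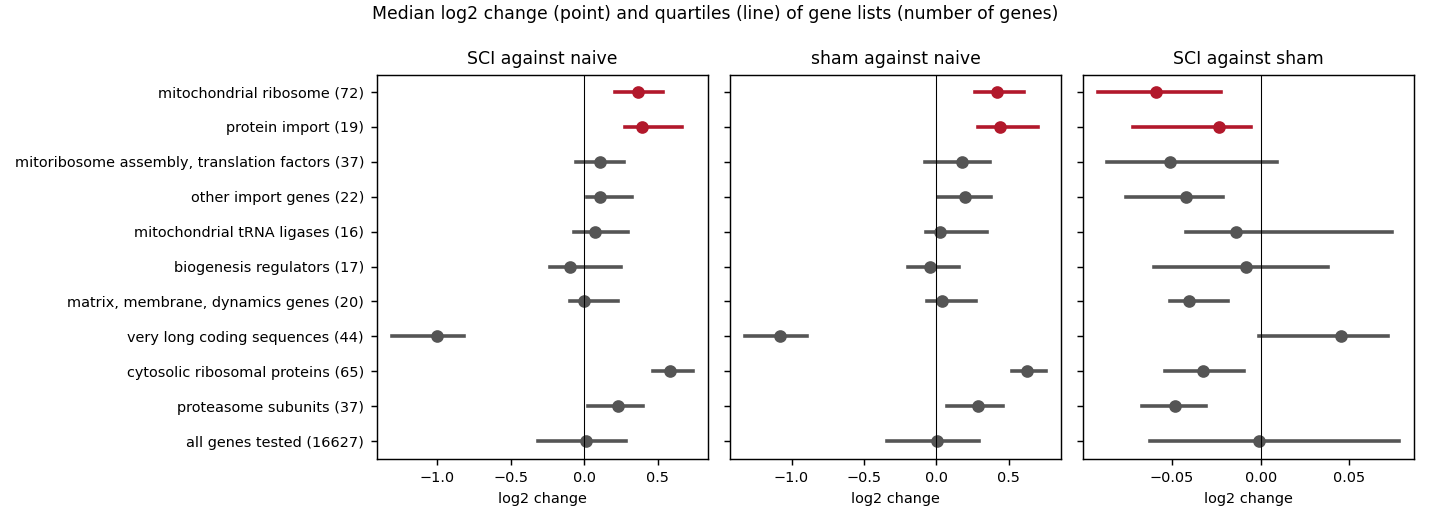
Median log2 change (points) and quartiles (lines) of gene lists, with the number of genes tested in brackets, for SCI against naive, sham against naive and SCI against sham (the x axis of SCI against sham has a finer scale). For SCI against naive the mitochondrial ribosome lies at 0.36 and protein import at 0.39, between cytosolic ribosomal proteins at 0.58 and all genes tested at 0.011.

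Other groups of transcripts moved with the same split between naive and operated libraries. Genes of cytosolic ribosomal proteins were called higher in 58 of 65 cases for SCI against naive (median 0.58) and proteasome subunits in 25 of 37 (median 0.23, with 4 lower). Over all genes 23.9% were called higher. A list made for exceptionally long coding regions, such as those of Herc1 and Macf1, held 44 tested genes. Of these 43 were called lower and none higher (median -1.003), where 24.6% of all genes were called lower. Their lengths were not measured, and the list was chosen with earlier results of these data known. Together the 44 genes summed to 6668 to 7324 CPM in SCI libraries, 6496 to 7112 CPM in sham libraries and 12628 to 13347 CPM in naive libraries. Coding or protein lengths of the members were not used here, and the part of transcript length or RNA quality in the members' rise was not tested. Cell type markers moved between the same groups. Schwann cell genes summed to 18289 to 22243 CPM in SCI libraries, 16936 to 21044 CPM in sham libraries and 28683 to 30467 CPM in naive libraries, with 4 of 6 called lower and 1 higher for SCI against naive. Satellite glia genes summed to 6549 to 7738 CPM in SCI libraries, 6726 to 8803 CPM in sham libraries and 3815 to 3886 CPM in naive libraries, with 3 of 5 called higher. Most of this sum was Apoe, which averaged 6667 CPM in SCI, 6946 CPM in sham and 3390 CPM in naive. Fabp7 and Kcnj10 were also called higher for SCI against naive, while Glul and Slc1a3 did not pass (log2 changes 0.017 and 0.043). Macrophage genes summed to 144 to 147 CPM in SCI libraries, 115 to 189 CPM in sham libraries and 98.6 to 115 CPM in naive libraries, with 3 of 5 called higher and 1 lower. Vascular genes summed to 177 to 192 CPM in SCI libraries, 168 to 235 CPM in sham libraries and 139.9 to 150.3 CPM in naive libraries, with 1 of 4 called higher for SCI against naive and 3 of 4 for sham against naive. Of 9 sensory neuron genes, whose sums are given above, Uchl1 and Prph were called higher for SCI against naive (log2 change 0.41 (SE 0.092) and 0.35 (SE 0.10)) and Scn9a lower (log2 change -1.47 (SE 0.11)). No tested gene of these 5 lists was at 0 in any library, and their part in the members' rise was not tested.

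The medians of members with and without each motif lay near each other. For SCI against naive the median log2 change was 0.35 both with and without CCGGAAG, 0.41 with and 0.33 without TGCGCA, and 0.35 both with and without AAGATGG. These are descriptions with no test. Of the promoters shown, AAGATGG stood both in Mrpl49, which rose, and in Mrps30, which fell, and CCGGAAG both in Timm10, which rose, and in Tomm70a, which did not. The promoters shown were picked by no stated rule, so these pairs only illustrate the medians.

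Symbols that matched but stayed under the CPM minimum were Mrpl1, Timm8b, Timm8a2, Timm17b, Tomm20l and further identifiers of Timm10b, Mrpl36 and Mrpl53. Timm8b was just under it, with 28, 19 and 17 counts in SCI 1 to 3, 25, 10 and 22 in sham 1 to 3 and 2, 5 and 20 in naive 1 to 3, and reached 1 CPM in 1 library. The further identifier of Timm8a1 was just above it, and the next member, Mrpl49, held at least 5.59 CPM of the plain library total in every library. Timm17b and the further identifiers of Mrpl36 and Mrpl53 had 0 counts in all libraries, which says only that no reads were assigned to those identifiers.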

How the data were processed

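Per the labels' protocols, RNA of the ganglia was isolated with the RNeasy Mini Kit and sequenced as paired ends after TruSeq V2 preparation. That kit keeps no strand, so reads of a member and of an antisense gene that overlaps it cannot be told apart. The submitters' processing notes list FastQC, Trimmomatic, TopHat2, HTSeq and DESeq2, with no version, and the genome build and annotation were not stated in the sources used here. The deposited values are raw counts per gene, whole numbers without normalization by the authors, in 9 libraries grouped by title.

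Members and lists were chosen with earlier results of these data known. Counts were tested with edgeR's quasi-likelihood method (version 4.0.16, R 4.3.3), TMM scaling, the default low-count filter and 1 model of all 9 libraries with 6 residual degrees of freedom. The p-values were adjusted by Benjamini-Hochberg over 16627 genes, and an adjusted p under 0.05 was a call. CPM used TMM-scaled library sizes, except in the rule for members, which used plain totals. Error values are SD over n = 3 libraries for CPM and SE for log2 changes. The test was checked on simulated counts.

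Named by rule were, in each class, the 4 largest called rises for SCI against naive whose libraries did not overlap, called falls, the highest and lowest mean CPM and all uncalled members where there were 5 or fewer, then the 2 further members with the smallest p for sham against naive, the 5 with the smallest p for SCI against sham, and the receptors, channels and motor anchor. Other uncalled members, Timm9, Timm8b and genes of other lists were named after their values were seen. Alternatives were DESeq2 (version 1.42.0), limma-voom (version 3.58.1), scaling by upper quartile or RLE, a strict low-count filter or none, only the groups compared, each library left out, the replicate number as a block, a change of at least 25%, and other rules for members. Promoters, and older symbols for the lists, came from RefSeq tables of GRCr8.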

Additional observations from a re-analysis of the deposited data

How the results depend on the processing

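Members called numbered 74 for SCI against naive and 75 for sham against naive, and every alternative run gave 51 to 79 and 60 to 78. The lowest came where a change of at least 25% was required as well. DESeq2 called 71 and 74 members, with 7725 and 8045 of all 16627 genes tested. In limma-voom 75 and 74 members were called, with 8094 and 8400 of all genes. For the other alternatives the share of all genes called was not counted, so their numbers of members have no background here. Leaving out single libraries gave 58 to 78 and 66 to 78 calls, the lowest without naive 3 in both, and medians over the members of 0.33 to 0.42 and 0.39 to 0.45 on the log2 scale. Without sham 1 and sham 3 together, chosen after seeing the data, 79 and 74 members were called, with the lone sham library assumed to vary like the others. For SCI against sham 0 members were called under every alternative run, while leaving out single libraries moved the median over the members from -0.10 without sham 1 to -0.016 without sham 3, and that of TIM22 and the small TIM chaperones from -0.14 without sham 1 to 0.054 without sham 2. The cause was not tested. With the replicate number as a block 71, 76 and 0 members were called for SCI against naive, sham against naive and SCI against sham. Same-numbered libraries of different groups correlated by -0.095 to 0.12 in their deviations from the group means, over 0.1 in 1 of 9 pairs, and libraries did not all correlate best with their own number, so the numbers are not taken to pair the libraries. The block ended the call of Timm21 for SCI against naive and made Tomm70a called lower for SCI against naive (edgeR adjusted p = 0.0317) and for sham against naive (edgeR adjusted p = 0.0353), and no other call of the named genes changed with it. Over the named genes, 13 results lost and 7 gained a call among the alternatives for SCI against naive, and the same numbers for sham against naive, none with a change of sign, against 591 that kept their side in each. For sham against naive the further identifier of Timm8a1 lost its call in 11 of these, with edgeR adjusted p up to 0.228 without sham 3. Timm10b gained one without sham 1 (edgeR adjusted p = 0.0138). Genes near 1 CPM are limited by depth. The offset by protein length, with and without the replicate block, was not run.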

Other observations

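The ligases that load mitochondrial tRNAs rose in 5 of 16 tested cases for SCI against naive and fell in none (31.2% higher, where 23.9% of all genes were; median log2 change 0.072). Vars2, the ligase for valine, averaged 24.9 ± 0.864 CPM in SCI, 24.1 ± 2.69 CPM in sham and 16.6 ± 1.16 CPM in naive and rose (edgeR adjusted p = 1.59e-04, log2 change 0.59, SE 0.089). Iars2, for isoleucine, averaged 91.3 ± 1.79 CPM in SCI, 92.6 ± 1.59 CPM in sham and 90.7 ± 4.71 CPM in naive and did not pass (edgeR adjusted p = 0.92, log2 change 0.0082, SE 0.059). Among 20 tested genes of the matrix, the membranes and mitochondrial dynamics 6 rose, 4 fell and 10 did not pass (median 0.00033), shares near the 23.9% of all genes called higher and 24.6% called lower. Citrate synthase (Cs), whose enzyme activity is often used as a measure of mitochondrial content, was read here as RNA only. Its RNA averaged 178 ± 2.69 CPM in SCI, 174 ± 21.1 CPM in sham and 199.6 ± 3.09 CPM in naive and did not pass (edgeR adjusted p = 0.0973, log2 change -0.17, SE 0.079). The outer membrane pore Vdac1 averaged 408 ± 3.07 CPM in SCI, 426 ± 23.1 CPM in sham and 338 ± 6.31 CPM in naive and rose (edgeR adjusted p = 0.0035, log2 change 0.27, SE 0.064). Vdac2 and Vdac3 did not pass, with log2 changes of -0.025 (SE 0.061) and 0.00059 (SE 0.071). The protease subunit Clpp rose by 0.60 (SE 0.067) on the log2 scale, and the prohibitins Phb2 and Phb1 by 0.48 (SE 0.057) and 0.37 (SE 0.060). Some genes of fusion and fission fell: Opa1 by -0.54 (SE 0.072), Mfn1 by -0.51 (SE 0.060) and Dnm1l by -0.52 (SE 0.11) on the log2 scale.

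Regulators of mitochondrial biogenesis were called higher in 4 of 17 cases and lower in 3 for SCI against naive (median -0.099), that is 23.5% higher, close to the 23.9% of all genes called higher, where 24.6% of all genes were called lower. Gabpa and Gabpb1 fell (-0.33 (SE 0.085) and -0.33 (SE 0.078) on the log2 scale). The letters CCGGAAG, in 23 of 72 member promoters, are shared by GABPA and other ETS factors. Nrf1 and Yy1 did not pass (edgeR adjusted p = 0.37, log2 change -0.10, SE 0.088 for Nrf1 and edgeR adjusted p = 0.241, log2 change -0.099, SE 0.067 for Yy1). The part of these factors in the members' change was not tested. Esrra, a nuclear receptor of energy metabolism, averaged 57.9 ± 0.142 CPM in SCI, 61.7 ± 5.04 CPM in sham and 46.3 ± 1.75 CPM in naive and rose (edgeR adjusted p = 0.00164, log2 change 0.32, SE 0.068). Ppargc1a, the coactivator that drives biogenesis, averaged 7.17 ± 0.857 CPM in SCI, 7.38 ± 1.45 CPM in sham and 8.98 ± 1.26 CPM in naive and did not pass (edgeR adjusted p = 0.103, log2 change -0.32, SE 0.15). The comparison with naive carries the same limits here as for the members.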
